A study of Mus musculus with 24 samples.

Results

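The 5 libraries described here are RNA-seq libraries of brain tissue from mice at postnatal day 25 (P25), 3 wild type (WT replicates 4, 5 and 6) and 2 Shank2 knock-out (KO replicates 5 and 6), of 24 libraries in the series. They were chosen by their own measured values: a P25 library was taken if Cbln3, a gene of cerebellar granule cells, was above 20000 and Emx2, a gene of the developing cortex and hippocampus, was below 10. The series holds 6 mice of each genotype at P14 and at P25. All are of strain C57BL/6N, with a drug-treatment label of naïve throughout. The labels mark these 5 libraries as second batch, name the tissue only as brain, and do not say which exons of Shank2 were removed or in which cells. The labelled replicates are separate mice by the series' design text.

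Shank2 is a large scaffold protein of the postsynaptic density of glutamatergic synapses, where it joins Dlgap proteins, Homer proteins and the actin-binding protein cortactin to receptors above and the cytoskeleton below. In the cerebellum, granule cells send parallel fibres to Purkinje cells, the only output neurons of the cortex, and Shank2 is made by both cell types. Variants of the human gene have been linked to autism and intellectual disability, and mouse mutants are used to study them.

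Cbln3 read 55206, 61110 and 54064 in WT replicates 4, 5 and 6 and 56050 and 56632 in KO replicates 5 and 6, in which order all values of the 5 libraries are given below. Emx2 read 0, 0.834 and 0 in WT and 3.89 and 0 in KO. A value is a read count divided by a size factor of its library. Just outside the rule lay P25 KO replicate 2, a library without the second-batch mark, with Cbln3 at 25147 and Emx2 at 31.4; in the other P25 libraries Cbln3 reached at most 2373. En2, a gene of the midbrain-hindbrain boundary and cerebellum that the rule did not use, read 6505, 6741 and 7032 in WT and 6095 and 7845 in KO. Of 12 genes of cortex and hippocampus, 8 passed the filter on low values. Fezf2 read 0, 2.5 and 2.9 in WT and 29.2 and 0 in KO. Neurod6 read 146, 139 and 157 in WT and 234 and 146 in KO. The list summed to 36415, 33093 and 27282 in WT and 34257 and 30266 in KO, mostly by Nptx1. Its sums in the other P25 libraries ran from 21134 to 45273. Of 20 genes of pons, medulla and cranial motor nuclei, mostly Hox genes, only 3 passed the filter on low values. Cbln3 and Emx2 chose these libraries, so their values are no check on the makeup. Cbln3 is also in the granule neuron list used below, and Emx2 in the cortex and hippocampus list. Purkinje cell genes, a list with neither, summed to at least 359410 in the 5 and at most 232330 in the other P25 libraries. By that list and En2 the libraries hold mostly cerebellum, with some forebrain transcripts present, whereas the label says brain.

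Each of these libraries differed from the rest in something other than genotype. The 5 libraries held between 32617430 and 40787586 recovered reads and between 24613 and 25122 genes with a read, and mitochondrial genes took 3.13% to 3.74% of reads. WT replicate 6 held choroid plexus RNA: Ttr, the transthyretin of choroid plexus epithelium, read 87.5, 210.2 and 241250 in WT and 318 and 2546 in KO. The summed value of 20 choroid plexus genes was 364840 in WT replicate 6 and 3544 to 8351 in the other 4. WT replicate 4 lacked the low level of liver transcripts that marked its batch: 18 liver genes, a list made after seeing the data, summed to 1.63 there and to between 1857 and 2810 in the 11 other second-batch libraries. WT replicate 5 had the highest value of the 5 for 20 of 20 genes of oligodendrocytes and myelin; Mbp, the myelin basic protein, read 75454, 126988 and 74918 in WT and 71409 and 88922 in KO. KO replicate 5 held neutrophil transcripts: S100a9 read 18.0, 10.8 and 22.0 in WT and 349 and 38.3 in KO. It also held transcripts of neurons outside the cerebellum at low levels, with Chat of cholinergic neurons at 0, 0.8 and 0 in WT and 62.2 and 0 in KO, and Tbr1 of cortical neurons at 22.1, 29.2 and 36.4 in WT and 97.2 and 40.1 in KO. Noradrenergic neuron transcripts were in KO replicate 5 and WT replicate 6: Dbh read 0, 0 and 76.6 in WT and 63.2 and 0.9 in KO, and Slc6a2 read 0.8, 0 and 88.1 in WT and 104.9 and 1.8 in KO. A list of 10 monoamine neuron genes summed to 800.2 in WT replicate 6 and to 705 in KO replicate 5, with 386 to 538 in the other 3. KO replicate 6 was the lowest of the 5 for 11 of 14 glucocorticoid-responsive genes. In bulk RNA, fewer cells of a type and less RNA per cell cannot be told apart.

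**Figure D1:**
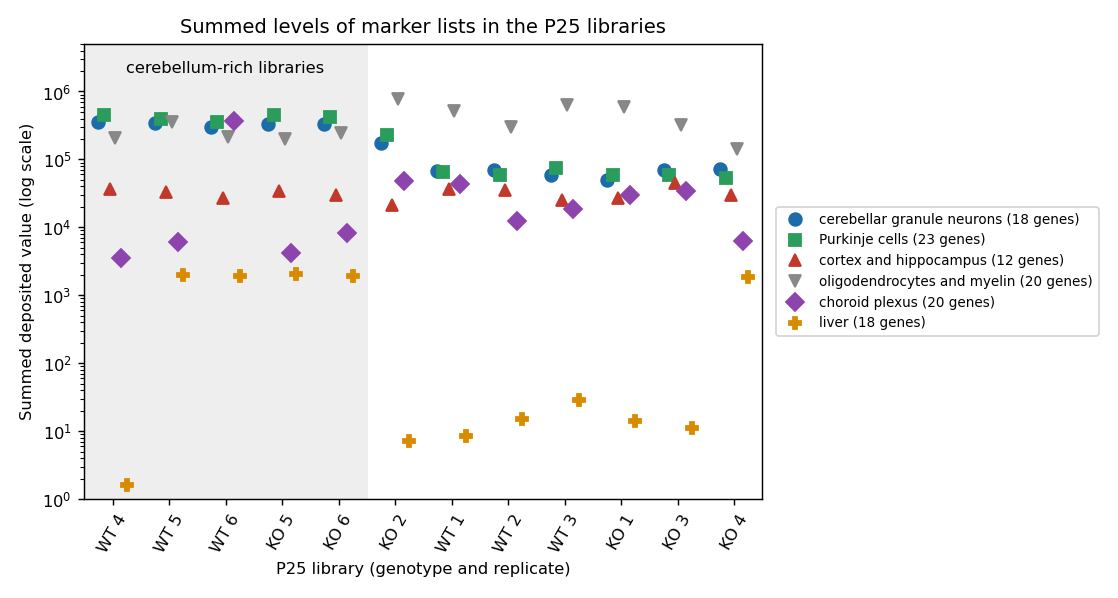
Summed deposited values (log axis) of 6 marker lists in the 12 P25 libraries, 1 symbol for each list; the grey field holds the 5 cerebellum-rich libraries. Choroid plexus genes reach 364840 in WT 6 against 3544 to 8351 in the other 4 of the field, and liver genes fall to 1.63 in WT 4. The granule neuron list holds Cbln3 and the cortex and hippocampus list Emx2, the genes that chose the libraries.

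The knock-out was first checked at its target. Shank2 (ENSMUSG00000037541, chr7:144001928-144424494, plus strand, GRCm38) read 13358, 12335 and 10131 in the WT libraries and 5153 and 4475 in the KO libraries. Both KO libraries lay below every WT library, at 43.2% and 37.5% of the WT mean, so transcript counted to the gene remained. The mean was 11942 ± 1649 (SD, n = 3) in WT and 4814 ± 479 (SD, n = 2) in KO. On the log2(value + 1) scale the difference was -1.30 (SE 0.13), the smallest unadjusted p of all genes tested, 2.87e-05 by limma, with an adjusted p of 0.502 by the Benjamini-Hochberg method. An exact 2-sided permutation test over the 10 arrangements of 3 WT and 2 KO libraries gave p = 0.2, the smallest value this design allows. On recovered reads, edgeR's quasi-likelihood test gave an adjusted p of 0.472 and DESeq2 one of 1.6e-23 with a log2 difference of -1.32. Without WT replicate 6, the lowest WT library, the limma difference was -1.42 with an adjusted p of 0.0362. Without WT replicate 4, or without WT replicate 5, limma did not call Shank2. Leaving out each of the 5 libraries in turn, the difference ran from -1.42 to -1.20. With the replicate number as a block the limma difference was -1.22 with an adjusted p of 0.0819.

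Libraries that the rule did not take also had less Shank2 in KO. In the other P25 libraries it ran from 6383 to 7729 in 3 WT and from 2217 to 4724 in 4 KO, a log2 difference of -1.15 (SE 0.30). At P14 the medians were 7815 in 6 WT and 3919 in 6 KO, with overlapping ranges of 3932 to 12778 and 1899 to 6458, and the difference was -0.93 (SE 0.31). The difference between the cerebellum-rich and the other P25 effects was -0.15 (SE 0.41), within its error. WT cerebellum-rich libraries had higher levels than any of the other P25 WT libraries.

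The related scaffolds differed by less than the spread between libraries. Shank1 read 11718, 11537 and 8822 in WT and 10789.6 and 11513 in KO, a log2 difference of 0.07 (SE 0.14) by limma. Shank3 read 14125, 14688 and 11137 in WT and 12548 and 13085 in KO, a difference of -0.05 (SE 0.13). For both genes WT replicate 6 was the lowest of the 5, as it was for Shank2 among WT libraries.

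**Figure D2:**
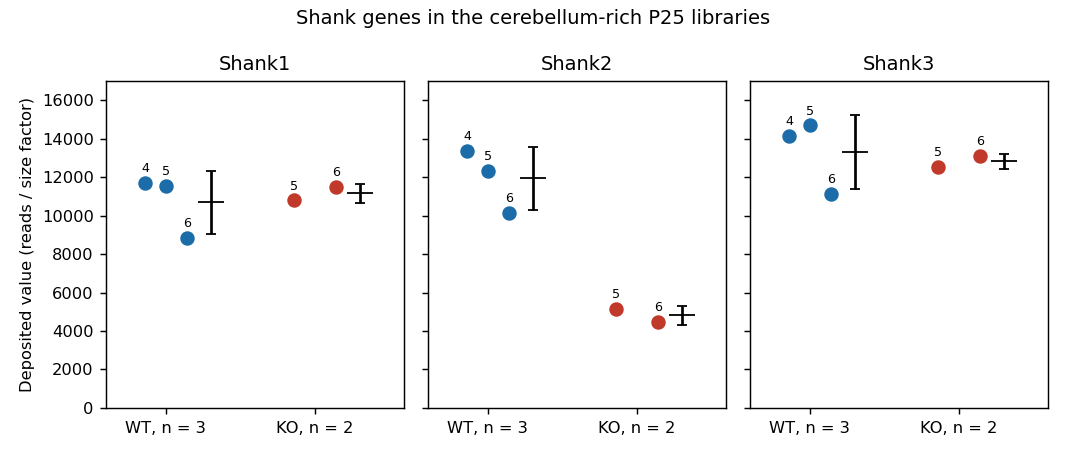
Deposited values of Shank1, Shank2 and Shank3 in each cerebellum-rich library, with replicate numbers above the points and mean ± SD as black bars (WT n = 3, KO n = 2). The KO points of Shank2 sit at 5153 and 4475, below all 3 WT points, while those of Shank1 and Shank3 lie among the WT points.

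Across all genes, KO and WT cerebellum-rich libraries could not be separated by limma. Of 17473 genes whose mean over the 5 reached 10, none (0%) passed an adjusted p of 0.05, and the smallest adjusted p was that of Shank2. An unadjusted p under 0.05 was reached by 442 genes (2.53%), 251 with higher values in KO (1.44%) and 191 with lower values (1.09%). Both KO libraries lay above every WT library for 1638 genes (9.37%) and below every WT library for 1087 (6.22%), or 15.6% of all. With edgeR no gene was called either (0%), at 478 with an unadjusted p under 0.05, and limma-voom called 0 with 456. With the replicate number as a block, limma called 0 with 945. In that fit WT replicate 4 has no partner, so the differences equal those without that library. It also leaves fewer residual degrees of freedom than the main fit, so 945 and 442 are not like counts. DESeq2 called 7 of 17458 genes (0.0401%), among them Shank2, Stap2, Nxn, S100a9, Mir124-2hg and Hopx. Leaving out WT replicate 4, DESeq2 called 32 genes (0.227%), and leaving out WT replicate 6 it called 14 (0.0805%); 3 genes, Shank2 and Stap2 among them, were called in all these fits. These refits were added after seeing the data. Of the 32 genes, 20 had higher and 12 lower KO values, and of the 14 these were 6 and 8.

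Higher values in KO were seen for genes with no shared role. Hrk, which codes for a BH3-only activator of cell death in neurons, read 369, 521 and 445 in WT and 875 and 686 in KO, a difference of 0.81 (SE 0.17). It was not called by DESeq2 (adjusted p = 0.112), and in the other P25 libraries its difference was -0.29 (SE 0.69).

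Mir124-2hg, the host transcript of a copy of the neuronal microRNA miR-124, read 635, 511 and 545 in WT and 854 and 881 in KO, a log2 difference of 0.63 (SE 0.11). Hopx, a homeodomain-only protein found in Bergmann glia and astrocytes, read 1663, 1739.8 and 1505 in WT and 2117 and 2311 in KO, a difference of 0.44 (SE 0.09). Neither set of values overlapped between genotypes, and both genes were called by DESeq2, at adjusted p of 0.0294 and 0.0413. Cdk5rap1, a tRNA-modifying enzyme of mitochondria, read 302, 216 and 311 in WT and 471 and 453 in KO, a difference of 0.76 (SE 0.18). Hap1, the huntingtin-associated protein that serves vesicle transport, read 1937, 2048 and 2011 in WT and 2388 and 2499 in KO, a difference of 0.29 (SE 0.07). Manba, a lysosomal mannosidase (0.43), Cfap46, a cilium protein (0.84), and the non-coding RNAs 6530403H02Rik (0.80) and Gm26917 (0.70) are also among the 10 genes of smallest p with higher KO values and a mean of at least 100. Gm26917 has near-identical copies of ribosomal sequence, so its counts are uncertain.

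Lower values in KO were led, after Shank2, by Stap2 and Nxn. Stap2, a signal-transducing adaptor, read 1532, 1745 and 1529 in WT and 1052 and 1094 in KO, a log2 difference of -0.57 (SE 0.09), with a DESeq2 adjusted p of 0.000298. Nxn, nucleoredoxin, a redox enzyme that restrains Wnt signalling, read 1519, 1603 and 1483 in WT and 1156 and 1179 in KO, a difference of -0.39 (SE 0.07), with a DESeq2 adjusted p of 0.02. Both KO libraries lay below the lowest WT library by more than the spread within either group. Bmp4, a ligand of the bone morphogenetic protein pathway made by young oligodendrocytes, read 124, 138 and 145 in WT and 81.6 and 87.5 in KO, a difference of -0.67 (SE 0.16). Itgav, an integrin subunit, read 1391, 1415 and 1382 in WT and 1167 and 1063 in KO, a difference of -0.33 (SE 0.08). Eya2 (-0.65), Sh3bgr (-0.58), Strc (-0.81), Nek7 (-0.35) and Ston1 (-0.76) are the remaining genes of the 10 and were not called by DESeq2.

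The same contrast in libraries that the rule did not take called none of these genes, and their direction was mixed. Limma called no gene in the other P25 libraries (0%), with an unadjusted p under 0.05 for 0.919% of 17962 genes, and none at P14 (0%), with 1.97% of 18279. Of the 10 genes with higher KO values, 6 had a positive difference in the other P25 libraries and 6 at P14. Of the 9 with lower KO values beside Shank2, 3 had a negative difference in the other P25 libraries and 5 at P14. In neither set did any of the 19 reach an unadjusted p under 0.05 in the same direction. Stap2 had a difference of 0.46 (SE 0.64) in the other P25 libraries and -0.38 (SE 0.27) at P14, and Nxn had 0.39 (SE 0.34) and -0.14 (SE 0.25). Bmp4 and Nek7 had negative differences in all 3 sets of libraries.

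**Figure D3:**
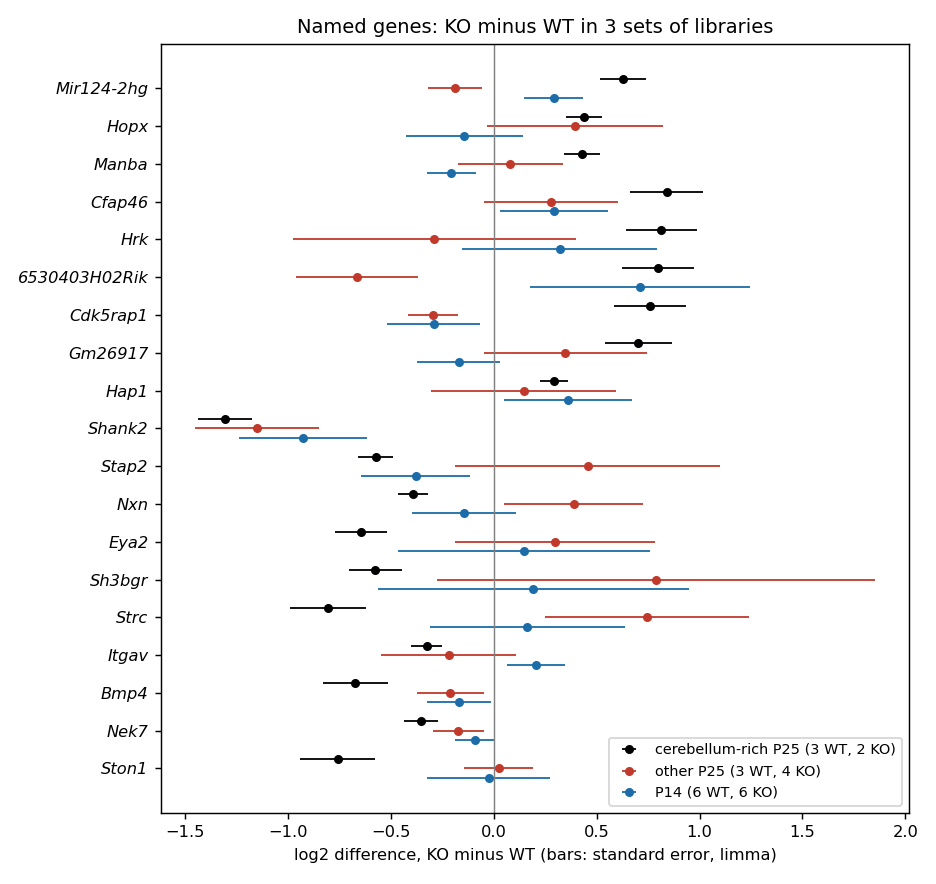
Log2 difference, KO minus WT, with the limma standard error for genes among the 10 of smallest p in each direction, in the cerebellum-rich P25 libraries (black), the other P25 libraries (red) and the P14 libraries (blue). Shank2, Bmp4 and Nek7 are below 0 in all 3 sets, whereas Stap2 and Nxn are above 0 in the other P25 libraries.

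The difference of the KO effect between cerebellum-rich and other P25 libraries was tested for 17986 genes in 1 fit over 12 libraries. No gene passed an adjusted p of 0.05 (0%), and 217 (1.21%) had an unadjusted p under 0.05. The smallest p belonged to Gm16201, a predicted gene, at 25.3, 23.4 and 47.9 in cerebellum-rich WT and 3.9 and 2.7 in KO, with a difference between effects of -3.83 (SE 0.63) and an adjusted p of 1 by limma. Cdk5rap1 came second, with a difference between effects of 1.06 (SE 0.21), since its KO minus WT value was -0.30 (SE 0.12) in the other P25 libraries. Mir343 (-2.14, SE 0.47), Clec12a, a myeloid receptor (3.66, SE 0.81), and Mir124-2hg (0.82, SE 0.19) followed, also at an adjusted p of 1. Clec12a read 54.3, 36.8 and 10.7 in the other P25 WT libraries and 1.7 to 2.5 in the cerebellum-rich WT libraries, so its term rests on the other WT libraries. Batch and tissue makeup cannot be told apart in WT, because all cerebellum-rich WT libraries are second batch and all others are not.

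Genes next to Shank2 on chromosome 7 were described as a group, since they share the engineered chromosome. Of 37 genes tested that start within 2 Mb of the Shank2 start, 9 (24.3%) had both KO libraries above every WT library, beside 9.37% of all genes, and 2 (5.41%) had both below, beside 6.22%. Their median log2 difference was 0, that of all genes 0.01, and 2 had an unadjusted p under 0.05 by limma. Without WT replicate 4, 13 neighbours lay above (35.1%, beside 19% of all genes) and 8 below (21.6%, beside 11.3%). Without WT replicate 6, 10 lay above (27%, beside 15.5%) and 5 below (13.5%, beside 16.1%). Without KO replicate 5, 10 lay above (27%, beside 22.4%) and 4 below (10.8%, beside 18.9%). Neighbouring genes can share regulation and flanking sequence, so they are not independent of each other.

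Dhcr7, the enzyme of the last step of cholesterol synthesis, read 1098, 1300.2 and 1121 in WT and 1303 and 1517 in KO, a log2 difference of 0.27 (SE 0.11). Nadsyn1, which makes NAD from its amide-lacking precursor, starts beside it on the other strand and read 333, 335 and 325 in WT and 412 and 366 in KO, a difference of 0.23 (SE 0.10). For Dhcr7, KO replicate 5 barely exceeded WT replicate 5, and the unadjusted limma p were 0.0467 and 0.0677. In the other P25 libraries Dhcr7 differed by -0.06 (SE 0.19) and Nadsyn1 by 0.13 (SE 0.22). LTO1, a factor of ribosome biogenesis, read 686, 586 and 547 in WT and 740.4 and 709 in KO, a difference of 0.26 (SE 0.12). Its difference was 0.27 (SE 0.10) in the other P25 libraries and 0.21 (SE 0.08) at P14, of like size in all 3 sets. Cttn, which codes for cortactin, a binding partner of Shank proteins, read 3448, 3481 and 3522 in WT and 3832 and 3738 in KO, a difference of 0.12 (SE 0.06).

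Further from these, Mrgpre, a G protein-coupled receptor, had a difference of 0.37 (SE 0.16), Mrgprf, another of that family, 0.17 (SE 0.08), Tnfrsf22, a decoy receptor, 0.13 (SE 0.09) and Kcnq1, a potassium channel, 0.26 (SE 0.22). Gm14372, an antisense gene inside Shank2, read 19.6, 18.4 and 17.2 in WT and 24.3 and 31.9 in KO; because the strand setting of the counting is unknown, its reads and those of Shank2 may not be separated. Ppfia1 (-0.08, SE 0.07), Fadd (-0.07, SE 0.21) and Ano1 (0.06, SE 0.24), which lie between Cttn and LTO1, had overlapping groups. Igf2, a growth factor of meninges and choroid plexus, read 3314, 3846 and 10948 in WT and 3168 and 3234 in KO; its high value is in the library with choroid plexus RNA, and the part of that RNA in its difference was not tested. Gm26793, a non-coding gene of the region, read 0 in every WT library and 5.8 and 0.9 in KO and did not pass the filter. Outside the 5 it read from 12.6 to 73.9 in 4 P25 KO and from 2.5 to 5.3 in 3 P25 WT libraries, and from 13.2 to 56.4 in 6 P14 KO and from 0 to 9.0 in 6 P14 WT libraries. Neither pair of ranges overlapped between genotypes. Among KO libraries, Gm26793 was lowest in the cerebellum-rich ones, at values that rest on few reads. Its place on chr7:144894560-144897461, minus strand, is just before LTO1.

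**Figure D4:**
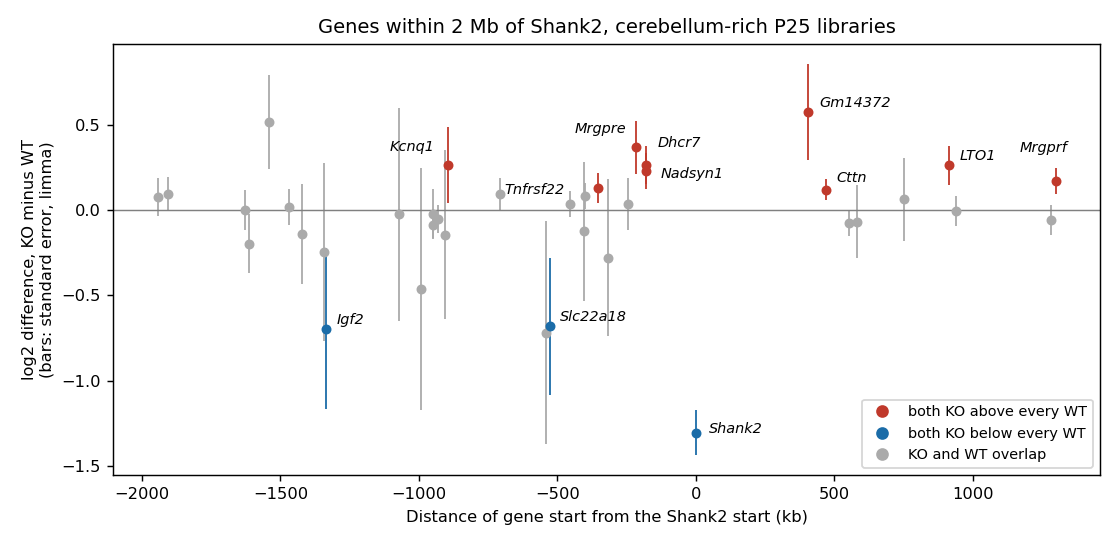
Log2 difference, KO minus WT, with the limma standard error for each tested gene that starts within 2 Mb of Shank2, against the distance of its start in kb. The 9 red genes have both KO libraries above every WT library, the blue genes have both below, and Shank2 is at -1.30.

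The promoter windows of the divergent pair and of LTO1 are shown because Dhcr7 and Nadsyn1 start beside each other and both had higher KO values, and because LTO1 differed by a like amount in all 3 sets of libraries. They are RefSeq windows on GRCm38.p6, from 250 bases before to 50 bases from the start on, printed 5′ to 3′ on the strand of the gene. Capitals mark matches on either strand to the GC box, which reads GGGCGG, the CCAAT box, the TATA box, which reads TATAAA, or the E-box, which reads CACGTG. The Dhcr7 window is chr7:143822917-143823216 on the plus strand, 1 of 3 RefSeq windows of that gene; the Nadsyn1 window is chr7:143822803-143823102 on the minus strand; the LTO1 window is chr7:144914850-144915149 on the plus strand.
Dhcr7: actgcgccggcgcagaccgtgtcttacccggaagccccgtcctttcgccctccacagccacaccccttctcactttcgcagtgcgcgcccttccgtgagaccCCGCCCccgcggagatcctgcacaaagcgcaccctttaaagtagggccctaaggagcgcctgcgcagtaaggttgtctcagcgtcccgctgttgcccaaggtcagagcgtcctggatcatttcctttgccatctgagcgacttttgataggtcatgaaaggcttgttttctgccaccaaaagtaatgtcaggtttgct
Nadsyn1: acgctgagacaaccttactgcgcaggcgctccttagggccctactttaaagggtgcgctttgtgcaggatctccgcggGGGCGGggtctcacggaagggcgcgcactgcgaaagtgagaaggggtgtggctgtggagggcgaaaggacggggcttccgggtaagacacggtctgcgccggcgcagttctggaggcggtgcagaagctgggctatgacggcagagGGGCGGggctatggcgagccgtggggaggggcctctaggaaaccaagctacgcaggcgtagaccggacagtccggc
LTO1: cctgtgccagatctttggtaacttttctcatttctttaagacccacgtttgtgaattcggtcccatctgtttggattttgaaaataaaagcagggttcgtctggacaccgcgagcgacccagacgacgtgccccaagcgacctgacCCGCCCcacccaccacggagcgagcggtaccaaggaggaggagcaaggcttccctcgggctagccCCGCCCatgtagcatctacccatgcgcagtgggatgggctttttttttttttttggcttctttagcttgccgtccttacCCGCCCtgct
The starts of Dhcr7 and Nadsyn1 lie 315 bases apart and their windows share 186 bases, read from opposite strands. The shared bases hold 1 GC box, which is the only match in the Dhcr7 window shown, and Nadsyn1 has 2 in all. LTO1 has 3 GC boxes. None of the 3 windows shown holds a CCAAT box, TATA box or E-box. The other RefSeq windows of Dhcr7 differ: chr7:143823149-143823448 holds 1 E-box, and chr7:143829964-143830263 holds 3 GC boxes and 2 CCAAT boxes. Of 32851 RefSeq promoter windows of that length, 35.7% hold the GC box, 37.4% the CCAAT box, 13.6% the TATA box and 7.15% the E-box. G and C make up 58.3%, 65.7% and 54.7% of the bases. A match of letters is a description and says nothing of binding.

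The differences of Purkinje cell genes as a list turned on single libraries of both genotypes. Of 23 genes of Purkinje cells tested, 4 (17.4%, beside 9.37% of all genes) had both KO libraries above every WT library. None had both below, beside 6.22% of all genes. The median log2 difference was 0.16, beside 0.01 for all genes. None passed the adjusted limma test. Kcng4, a potassium channel subunit of Purkinje cells, read 7007, 5669.7 and 4427 in WT and 8323 and 7603 in KO, a difference of 0.51 (SE 0.18). Foxp2, a transcription factor of Purkinje cells, read 326, 284 and 248 in WT and 381 and 353 in KO, a difference of 0.37 (SE 0.14). Rora, the nuclear receptor needed for Purkinje maturation, differed by 0.05 (SE 0.07). The classical markers overlapped between genotypes: Calb1, calbindin, read 34249, 27265 and 25059 in WT and 33572 and 30144 in KO, and Pcp2, a G protein modulator, read 3815, 3314 and 2652 in WT and 3469.9 and 3561 in KO. WT replicate 6 was the lowest of the 5 for 18 of the 23 genes (78.3%, beside 34.2% of all genes). Without it the median was 0.05 and 4 genes lay above (beside 15.5% of all genes). Without WT replicate 4 the median was 0.28, with 17 above (beside 19%) and 2 below (beside 11.3%). Without KO replicate 5 the median was 0.09, with 4 above (beside 22.4%). KO replicate 5 was the highest of the 5 for 11 of the 23 genes (47.8%, beside 18.2% of all genes). With P25 KO replicate 2 admitted by an Emx2 limit of 50, the median was -0.16. That library has another tissue makeup: the list summed to 232330 there, beside 359410 to 446300 in the 5.

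Genes of metabotropic glutamate signalling and Purkinje plasticity turned on the same libraries. Of 24 tested, 7 (29.2%, beside 9.37% of all genes) lay above in both KO libraries and none below, with a median of 0.18 and no call. Nos1, the neuronal nitric oxide synthase of granule cells and interneurons, had the smallest p of the group; it read 5973, 7224 and 6397 in WT and 8181 and 8666 in KO, a log2 difference of 0.37 (SE 0.10). Grm5 read 174.9, 286 and 265 in WT and 414 and 328 in KO, a difference of 0.64 (SE 0.23). Grm5 is a group I receptor that prevails in forebrain. WT replicate 6 was the lowest of the 5 for 14 of the 24, KO replicate 5 the highest for 15, and without WT replicate 6 the median was 0.08, with 7 above (beside 15.5% of all genes), while without WT replicate 4 it was 0.28, with 18 above (beside 19%), and without KO replicate 5 it was 0.11, with 9 above (beside 22.4%). With KO replicate 2 admitted it was -0.02.

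Ionotropic glutamate receptors and their partners gave 7 of 31 tested genes above in both KO libraries and 1 below. Together these were 25.8%, beside 15.6% of all genes, and 9.37% of all genes lay above. The median was 0.12, or 0.05 without WT replicate 6. Leaving out WT replicate 4 gave 14 above (beside 19% of all genes) and 1 below, and leaving out KO replicate 5 gave 13 above (beside 22.4%) and 2 below. The principal cerebellar subunits hardly differed. Grin1 (0.03, SE 0.11), Grin2a (0.04, SE 0.12), Grin2c (-0.04, SE 0.12), Gria1 (0.12, SE 0.12), Gria2 (-0.02, SE 0.10) and Gria4 (0.05, SE 0.10) all had overlapping groups, and each turned sign in at least 1 other setting. So did Cbln1, a synapse organiser secreted by granule cells, at 32464, 31581 and 30187 in WT and 31066 and 34388 in KO. Grin2b, the NMDA receptor subunit of young and forebrain neurons, read 731, 898 and 761 in WT and 1257 and 982 in KO, a difference of 0.49 (SE 0.14). Shisa7, an auxiliary receptor subunit, read 659.6, 639 and 585 in WT and 917 and 725 in KO, a difference of 0.38 (SE 0.12), and Shisa9 differed by 0.25 (SE 0.10). Both groups of values stood apart, with KO replicate 5 the higher of the KO pair for Grin2b and the Shisa genes.

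Among 40 postsynaptic scaffolds and their partners, 6 lay above and 2 below (20% together, beside 15.6% of all genes), with a median of 0.03. Without WT replicate 6, 6 lay above and 14 below, with a median of -0.04, and without WT replicate 4, 12 lay above and 2 below; the shares of all genes are those given for the neighbours. Sipa1l1, a Rap GTPase-activating protein of spines, read 3186, 3212 and 2819 in WT and 4376 and 3657 in KO, a difference of 0.38 (SE 0.10). Homer2, which links Shank proteins to group I receptors, read 855, 1098 and 1168 in WT and 1205 and 1476 in KO, a difference of 0.37 (SE 0.15). Camk2a, the abundant kinase of forebrain synapses, read 3918.5, 3523 and 2983 in WT and 6122 and 3924 in KO, a difference of 0.51 (SE 0.20). Lrrtm2, a synaptic adhesion protein, read 1261, 1237 and 1285 in WT and 1149 and 1084 in KO, a difference of -0.18 (SE 0.07). Homer2 and, as given above, Cttn did not overlap between genotypes, while other partners did: Homer3, the Homer protein of Purkinje cells, differed by 0.21 (SE 0.14), Homer1 by -0.05 (SE 0.13) and Dlg4, which codes for PSD-95, by 0.06 (SE 0.08), and all 3 turned sign in at least 1 other setting. WT replicate 6 was the lowest of the 5 for 29 of the 40 genes.

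Several of these genes were highest in KO replicate 5, which held forebrain and cholinergic transcripts; WT replicate 6, like it, held monoamine neuron transcripts. Grin2b, Camk2a, Stx1a (207, 228 and 242 in WT, 438 and 264.5 in KO) and Gabra5 (5.7, 20.02 and 12.4 in WT, 45.7 and 24.6 in KO) are genes that forebrain also expresses. Of 8 cortex and hippocampus genes tested, 5 were highest in KO replicate 5 and the median difference was 0.32, or -0.05 without that library. Emx1 read 0.8, 0.8 and 7.7 in WT and 10.7 and 3.6 in KO. Nptx1, which made up most of the summed value of that list and is expressed in cerebellum too, read 31951, 28683 and 23395 in WT and 29414 and 26220.0 in KO. The part of other brain tissue in the values of Grin2b, Camk2a, Stx1a and Gabra5 was not tested.

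Genes of granule cells, astrocytes and oligodendrocytes showed no common difference. Of 18 granule neuron genes 1 lay above (Fat2, 0.20, SE 0.12) and 1 below (Etv1, -0.17, SE 0.10), with a median of 0.03, or -0.32 with KO replicate 2 admitted. Together these were 11.1%, beside 15.6% of all genes. The summed value of the list was 352580.0, 343890.0 and 301180.0 in WT and 334530.0 and 335980.0 in KO. In KO replicate 2, a library of another tissue makeup, it was 172470. Bergmann glia and astrocyte genes had a median of -0.03 over 18 genes, of which Hopx and the water channel Aqp4 (0.31, SE 0.12) lay above and Ndrg2 (-0.26, SE 0.10) and Aldh1a1 below. These made up 22.2% of that list, beside 15.6% of all genes. Oligodendrocyte genes had a median of -0.12 over 20 genes, which was 0.09 without WT replicate 5. The 8 genes of oligodendrocyte precursors had a median of -0.19, or 0.14 with KO replicate 2 admitted. Leaving out each library in turn, it ran from -0.197 to -0.059. Of the 8, 2 (25%, beside 6.22% of all genes) had both KO libraries below every WT library and none above. Pdgfra, their defining receptor, read 807, 862 and 969.6 in WT and 775 and 628 in KO, a difference of -0.33 (SE 0.13). Bmp4 is described above.

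Calb2, the calcium-binding protein calretinin of granule cells and unipolar brush cells, read 16298, 15719.6 and 12281 in WT and 11132 and 9771 in KO. Both KO libraries lay below every WT library, with a log2 difference of -0.49 (SE 0.14) and an unadjusted limma p of 0.01. DESeq2 without WT replicate 6 called it, at a difference of -0.61. Lgi2, a secreted synaptic protein of interneurons and granule cells, read 4896, 5181 and 4791 in WT and 4423 and 4325 in KO, a difference of -0.18 (SE 0.07). Dcx, a microtubule protein of young neurons, read 351, 320.3 and 392.4 in WT and 412 and 475 in KO, a difference of 0.32 (SE 0.13).

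Genes that respond to glucocorticoids had lower values in KO, mostly by way of 1 library. All 14 tested had a difference below 0, and the median was -0.52. Of them 3 (21.4%, beside 6.22% of all genes) had both KO libraries below every WT library, and none was called by limma. Sult1a1, a sulphotransferase, read 505, 394.5 and 501.5 in WT and 339 and 157 in KO, a difference of -1.005 (SE 0.31). Plin4, a lipid droplet protein, read 182, 247 and 143 in WT and 133 and 54.7 in KO, a difference of -1.11 (SE 0.40). Fkbp5, a co-chaperone of the glucocorticoid receptor, read 801, 809.8 and 455 in WT and 703 and 257 in KO, a difference of -0.65 (SE 0.44). KO replicate 6 was the lowest library for 11 of the 14, and without it the median was -0.06 with 8 of 14 below 0. Without KO replicate 5 the count below every WT library was 11, beside 18.9% of all genes.

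Immediate early genes had a median of -0.19 over 24 genes. Of these 3 lay below (12.5%, beside 6.22% of all genes) and none above (beside 9.37%). The WT libraries themselves differed: Fos read 1093, 585 and 267 in WT and 368 and 274.5 in KO, and Nr4a3 read 1493, 282 and 228 in WT and 471 and 459 in KO. WT replicate 4 was the highest of the 5 for 14 of 24 genes (58.3%, beside 28.9% of all genes) and for 14 of 20 heat shock and unfolded protein genes (70%). Without it the immediate early median was -0.02.

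Neutrophil genes were higher in KO by way of both libraries but very unequally. S100a8 read 10.6, 5.0 and 8.6 in WT and 131 and 21.0 in KO, Ngp 13.9, 15.8 and 14.4 in WT and 208 and 22.8 in KO, and Camp 8.2, 11.7 and 7.7 in WT and 48.6 and 15.5 in KO. The haemoglobin gene Hbb-bs overlapped between genotypes, at 1340.5, 1727 and 3782 in WT and 3604 and 2566 in KO. The 9 blood cell genes had a median difference of 0.59, and 4 (44.4%, beside 9.37% of all genes) lay above. The median was 0.38 without KO replicate 5, 0.25 without WT replicate 4 and 1.05 without WT replicate 6. Without WT replicate 6, 9 of 9 lay above, beside 15.5% of all genes. DESeq2 without WT replicate 6 called Hbb-bs (1.012, adjusted p = 0.000116) and Hba-a2 (0.95, adjusted p = 0.0223). Of 20 choroid plexus genes, all were highest in WT replicate 6 and the median of -1.21 was 0.35 without it. Meningeal genes had a median of -0.44, -0.11 without WT replicate 6 and -0.67 without KO replicate 5, with Aldh1a2 at 287, 221 and 355 in WT and 187 and 176.9 in KO and Ogn at 312, 280.2 and 566 in WT and 227 and 178 in KO.

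**Figure D5:**
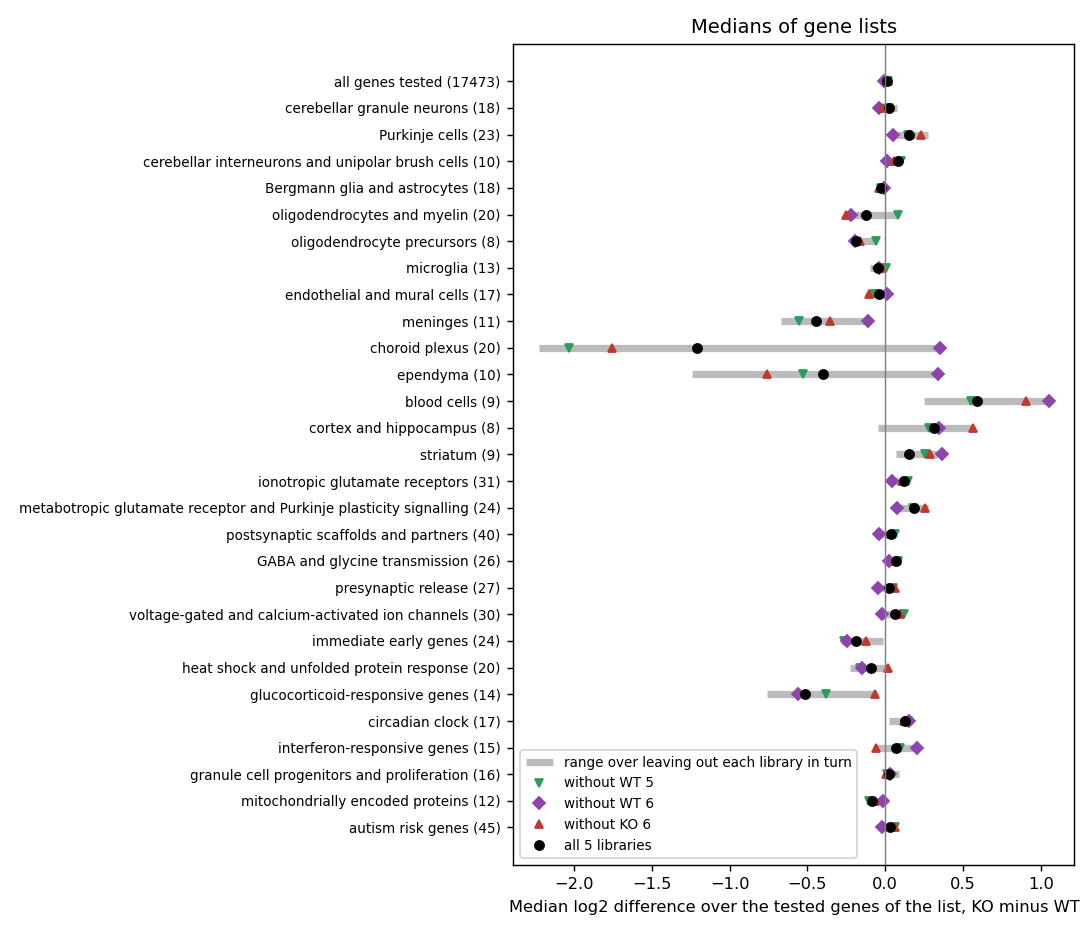
Median log2 difference, KO minus WT, over the tested genes of each list with at least 8 (number in brackets): all 5 libraries (black), without a single library (coloured symbols), and the range over leaving out each library in turn (grey). Choroid plexus moves from -1.21 to 0.35 without WT 6 and the glucocorticoid list from -0.52 to -0.06 without KO 6.

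Further lists are set beside the 15.6% of all genes that did not overlap, 9.37% above and 6.22% below. Among 27 presynaptic genes 2 lay above and none below (7.41% together, median 0.02). Among 26 genes of GABA and glycine transmission these were 2 and none (7.69%, median 0.07), and among 30 ion channels 3 and 1 (13.3%, median 0.06). Among 17 circadian clock genes none lay apart in either direction (median 0.13). Of 45 autism risk genes, 8 (17.8%, beside 9.37% of all genes) lay above and none below, with a median of 0.03. Without WT replicate 6, 9 lay above (beside 15.5% of all genes) and 12 below (beside 16.1%), with a median of -0.02. Myt1l, a neuronal transcription factor, read 3973, 4105 and 4048 in WT and 4514 and 4616 in KO, a difference of 0.18 (SE 0.06). Cacna1e, a voltage-gated calcium channel, read 18754, 18516 and 17579.7 in WT and 20553 and 22060 in KO, a difference of 0.22 (SE 0.08). Over all 34 lists, 531 of 586 genes passed the filter, 0 were called by limma and 2 by DESeq2, Hopx and S100a9 beside Shank2 itself.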

How the data were processed

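RNA-seq was done on brain tissue of 24 mice. The deposited table holds, per the labels and its own values, a signal for each of 46078 gene identifiers: whole read counts divided by a size factor of the library, as the authors made them. The submitters' processing notes name Trimmomatic 0.35, TopHat2 2.1.0, HTSeq, DESeq2 and the mouse build GRCm38; for the strand setting, no label or header gives a value. Dividing each column by its smallest positive value gave whole reads for 100% of values within 0.01, which were used for edgeR 4.0.16 and DESeq2 1.42.0. GENCODE names matched 45143 identifiers.

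KO and WT were compared with limma 3.58.1 (R 4.3.3) on log2(value + 1), in genes with a mean of at least 10 over the 5 libraries, with Benjamini-Hochberg adjustment at 0.05. Fold differences on that scale understate the change of low genes. The test had 3 residual and 3.72 prior degrees of freedom; p-values measure the spread between these mice. The difference of effects was fitted over 12 P25 libraries. WT and KO libraries numbered 5, and those numbered 6, share the first part of the mouse name in the labels, which do not say what it marks; WT replicate 4 shares its own with P25 KO replicate 4, outside the 5. The deviations of the pairs from their group means correlated at 0.096 and 0.185 over genes. KO replicates 5 and 6 are the whole KO group, so their deviations are equal and opposite. Each WT library therefore correlates with KO replicate 5 and KO replicate 6 at the same size with opposite sign. WT replicate 4 and KO replicate 5, which differ in number, correlated at 0.137. These correlations cannot show whether libraries of the same number are alike. The main fit has no block, and blocked values are given beside it. The exact test used scipy 1.17.1. The programs were tested on simulated data. The members, lists and tests were chosen with earlier results of these data known.

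Genes were named by this rule: genes past the threshold, filled to 10 in each direction with those of smallest p among genes with a mean of at least 100 and groups that do not overlap; a set of Shank, Homer and glutamate receptor genes; genes within 2 Mb of Shank2; up to 4 genes of each list with the smallest p; and the 5 smallest p of the difference of effects. Cbln3, Emx2, En2, Fezf2, Emx1, Mbp, Calb1, Pcp2, Rora, Nptx1, Fkbp5, Hbb-bs, Hba-a2, Nr4a3 and Aldh1a1 fall outside it and were chosen after their values were seen, as were the genes named only in the closing section. Some genes that the rule takes are not reported here. Alternatives changed the tool, scaling, pseudocount, filter, replicate block, Emx2 limit and the libraries in the fit.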

Additional observations from a re-analysis of the deposited data

Results flagged for a closer look

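Of 17 groups of 4 to 10 libraries examined for a single value far from the rest, 3 held one. Chance alone sets apart about 1 in 20 groups of unselected values. That rate does not hold here, since the groups overlap and some were formed by the Cbln3 and Emx2 limits. The liver list was also made after seeing the data. These 3 values are therefore descriptions. Cbln3 was 25147 in P25 KO replicate 2 and 27.0 to 37.2 in the other 3 P25 KO libraries outside the 5. That library thus holds cerebellar RNA, although its Emx2 value kept it out. The summed value of choroid plexus genes was 364840 in P25 WT replicate 6 and 3544 to 43736 in the other P25 WT libraries. The summed value of liver genes was 1857 in P25 KO replicate 4 and 7.18 to 14.1 in the other P25 KO libraries outside the 5; it is the only second-batch library among them.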

How the results depend on the processing

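No gene was called by limma in any setting except Shank2 without P25 WT replicate 6, so leaving out a library gave 0 to 1 calls. DESeq2 called 7 genes, 32 without WT replicate 4 and 14 without WT replicate 6, of which 2, 6 and 4 were list members. Shank2 was -1.32 with DESeq2, -1.25 and -1.41 in those refits, and -1.42 to -1.20 leaving out a library. The difference of effects gave 0 to 1 calls leaving out a library, 1 without KO replicate 5. With the replicate block, which leaves WT replicate 4 without a partner, 0 genes were called, 945 had an unadjusted p under 0.05, and Shank2 was -1.22 with a limma adjusted p of 0.0819. Differences in the blocked fit equal those without WT replicate 4.

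Of 79 single genes, 60 kept their sign in every setting, among them 18 of the genes of smallest p beside Shank2, and 19 turned; the cause was not tested. An Emx2 limit of 50 gave Shank1 -0.072, Fadd 0.064, Homer3 -0.232, Dlg4 -0.085, Grin1 -0.14, Gria1 -0.13, Gria4 -0.177, Cbln1 -0.232, Ttr 0.691, Cacna1e -0.026, Lgi2 0.009, Pdgfra 0.033 and Mrgprf -0.153. The replicate block gave Shank3 0.003, Ano1 -0.087, Homer1 0.05 and Grin2a -0.02. DESeq2 gave Ano1 -0.103, Grin2a -0.05 and Homer1 0.022 without WT replicate 4, and Fadd 0.034, Gria4 -0.007, Grin1 -0.061, Grin2a -0.012, Shank1 -0.054 and Ttr 3.275 without WT replicate 6. Leaving out a library gave Shank1 -0.061 to 0.144, Shank3 -0.169 to 0.031, Fadd -0.226 to 0.041, Ano1 -0.173 to 0.302, Homer1 -0.157 to 0.05, Grin1 -0.066 to 0.102, Grin2a -0.024 to 0.149, Grin2c -0.14 to 0.055, Gria2 -0.098 to 0.056, Gria4 -0.012 to 0.106, Cbln1 -0.015 to 0.131 and Ttr -2.986 to 2.721.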

Other observations

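Several neuronal genes separated WT replicate 4 from the other WT libraries rather than KO from WT. Gsg1l, an auxiliary AMPA receptor subunit, read 1199.9, 361 and 475 in WT and 1547 and 1479 in KO. Cck, the neuropeptide cholecystokinin, read 1101, 468 and 419 in WT and 1275 and 1075 in KO. Rasgrf1, a Ras exchange factor, read 10901, 5045 and 6007 in WT and 11745 and 10225 in KO, and Barhl1, a homeobox factor of the granule cell lineage, read 789.6, 385 and 365 in WT and 861 and 698 in KO. In all 4 genes WT replicate 4 lay near the KO values. DESeq2 without that library called them, at log2 differences of 1.83, 1.38, 0.96 and 1.03.

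Prl2c3, a gene of the prolactin family with close copies and so of uncertain count, read 35.1, 30.9 and 30.6 in WT and 82.6 and 90.3 in KO, a log2 difference of 1.40 (SE 0.21). Sst, the neuropeptide somatostatin, read 13.9, 39.2 and 73.7 in WT and 149 and 104 in KO.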
